A study of Mus musculus with 24 samples.

Results

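Genes of striatal projection neurons, the dopamine receptors among them, were examined in 4 brain areas of mice kept under chronic mild stress (CMS) and of control mice. All probe sets whose gene symbol was Drd1, Drd2, Adora2a, Ppp1r1b, Rgs9, Tac1, Gpr6, Lrrc10b or Syndig1l were taken, which gave 13 probe sets of 8 genes out of 45037 probe sets and 18193 genes. Rgs9 had 3 probe sets, Drd1, Tac1 and Syndig1l had 2 each, and Drd2, Gpr6, Ppp1r1b and Lrrc10b had 1 each. No probe set was paired with Adora2a, the adenosine receptor gene of the indirect pathway neurons, in the annotation used, and it was not analysed here. RNA from the prefrontal cortex (PFC), a further sample named only cerebral cortex (CC), the amygdala (Amy in the plots) and the hippocampus (Hippo) was hybridised to 24 Affymetrix arrays, 3 for each of the 8 groups of area and treatment. All groups were wild-type male C57BL/6 mice, 6 to 8 weeks old before the experiment, and CMS was a changing series of stressors on 6 days per week for 4 weeks. Control mice had no stressors. The descriptions of single samples give other upper ends of the age range, so age was not used. The study's methods speak of pooled RNA and its results of separate mice, and the p-values may therefore measure only the spread between these arrays. The genes were chosen by their known difference between CMS and control in the CC, so that difference and the levels of the control CC are described without a test.

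Projection neurons make up most of the striatum and form a pair of output pathways. Neurons of the direct pathway carry the dopamine D1 receptor (Drd1), which couples to stimulatory G proteins, and make substance P from the precursor encoded by Tac1. Neurons of the indirect pathway carry the D2 receptor (Drd2), which couples to inhibitory G proteins, and Gpr6, an orphan receptor that is active without a known ligand. Both kinds hold DARPP-32, the phosphatase inhibitor encoded by Ppp1r1b that is phosphorylated after D1 receptor stimulation, and RGS9, which speeds the return of inhibitory G proteins to rest. Syndig1l encodes a membrane protein related to the synapse organiser SynDIG1, and Lrrc10b a protein with leucine-rich repeats. Neurons with D1 or D2 receptors also occur in the amygdala and in the deep layers of the PFC. The striatum itself was not among the labelled areas.

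The 250 bases before a listed start are shown for both dopamine receptors, for Gpr6 and for Tac1. These genes mark the separate pathways, and their probe sets varied together over the areas. They are RefSeq sequences of build GRCm38.p6, read along each gene's own strand. Capitals mark TGACG, the core of the cyclic AMP response element (CRE), and GGGCGG, a GC box, on either strand. Drd1 lies at chr13:54055659-54055908 (minus strand), Drd2 at chr9:49340153-49340402 (plus strand), Gpr6 at chr10:41072291-41072540 (minus strand) and Tac1 at chr6:7554811-7555060 (plus strand). The RefSeq gene Drd2 begins at 49340360, inside its window, whose last bases therefore belong to the gene.
Drd1: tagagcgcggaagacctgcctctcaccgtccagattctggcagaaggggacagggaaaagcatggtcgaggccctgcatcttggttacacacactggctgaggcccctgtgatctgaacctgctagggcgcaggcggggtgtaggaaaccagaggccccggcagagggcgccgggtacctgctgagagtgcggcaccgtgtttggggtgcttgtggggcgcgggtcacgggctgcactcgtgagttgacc
Drd2: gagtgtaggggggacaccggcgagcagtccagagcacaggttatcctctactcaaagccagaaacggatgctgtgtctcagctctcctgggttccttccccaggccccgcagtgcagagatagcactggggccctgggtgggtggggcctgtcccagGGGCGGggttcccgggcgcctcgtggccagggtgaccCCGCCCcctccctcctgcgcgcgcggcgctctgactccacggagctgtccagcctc
Gpr6: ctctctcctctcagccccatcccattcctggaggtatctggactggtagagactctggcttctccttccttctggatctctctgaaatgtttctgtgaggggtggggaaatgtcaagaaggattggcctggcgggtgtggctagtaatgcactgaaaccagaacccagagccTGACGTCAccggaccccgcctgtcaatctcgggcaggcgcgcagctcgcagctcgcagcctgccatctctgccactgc
Tac1: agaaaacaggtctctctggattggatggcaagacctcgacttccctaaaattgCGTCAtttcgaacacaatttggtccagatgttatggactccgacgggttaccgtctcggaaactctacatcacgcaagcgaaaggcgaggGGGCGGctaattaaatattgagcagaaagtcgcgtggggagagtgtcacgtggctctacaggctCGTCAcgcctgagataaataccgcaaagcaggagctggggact

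The table of promoters held 7 windows for 6 of the 9 genes, 2 of them for Drd1. Gpr6 had a full CRE, TGACGTCA, that began 78 bases before its start, a motif found in 1.55% of the 32851 windows of the same length. Its capitals are a pair of TGACG cores that overlap in this palindrome. Tac1 had a TGACG core on the opposite strand at 197 and again at 43 bases before its start, and 17.8% of all windows held at least 1 core. Tac1 also had an E-box, CACGTG, at 61 bases, which 6.02% of windows held. GGGCGG was present in 5 of the 7 windows and in 32.7% of all windows. In Drd2 it lay at 93 and, on the opposite strand, at 56 bases before the listed start, and thus nearer to the RefSeq gene start. The first Drd1 window held neither motif, and the second, not printed, held 1 GC box. TATAAA was found in Rgs9 alone among the 7 windows (12.4% of all), and the AP-1 site TGAGTCA in none of them (4.46% of all). These matches describe the letters of the windows.

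Values are log2 and centred, and 0 is each probe set's median of the 24 arrays. A value of 1 therefore is 1 doubling above the median, and levels of different genes cannot be set against each other. A probe set was called when the adjusted p from limma was under 0.05 and the fold change over 2, as in the methods, and counts at the adjusted p alone are given beside these. Counts at an unadjusted p have no share of all probe sets or genes beside them, because none was computed, so they are not set against a background. Of the 13 probe sets, 10 ranged over more than 1 log2 unit and had a wider range than at least 99.2% of all probe sets. The other 3 hardly varied, 2 of Rgs9 (ranges 0.09 and 0.09) and 1 of Tac1 (0.27), so these genes are described by the probe set that did. No pair of arrays within a group was identical, and the median standard deviation within groups was 0.0334 to 0.0661. Cortical projection neuron genes had mean log2 values of 0.50 in the control CC, 0.13 in the PFC, -0.18 in the hippocampus and -0.88 in the amygdala, highest in the areas labelled as cortex. Centred values do not show whether a marker is absent from an area.

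In control mice the genes were high in the amygdala and PFC and low in the hippocampus. In the mean of the 8 genes, each gene was the mean of all its probe sets, flat ones included. That mean was 1.13 ± 0.01 for the amygdala and 0.91 ± 0.02 for the PFC, against -2.59 ± 0.05 for hippocampus and -3.01 ± 0.14 for CC (SD, n = 3 arrays each). These control arrays are also those of the CMS comparisons. In the comparison of amygdala with hippocampus, 9 of 13 probe sets were called higher (3.75% of all probe sets were), and 10 were higher at the adjusted p alone (21.7% of all). Between hippocampus and PFC, 9 of 13 were called lower in the hippocampus (3.35% of all). At the adjusted p alone 9 were lower (20.6% of all) and 2, the flat probe sets of Rgs9, were higher by at most 0.06 (37% of all). The control hippocampus arrays also stood apart in bacterial RNAs added to the samples. Poly-A controls (27 probe sets) had means of -4.02 there, 0.37 in the amygdala, -0.55 in the PFC and 0.48 in the CC, and hybridisation controls (18 probe sets) -1.11, 0.01, -0.17 and 0.15. Choroid plexus genes (11) had means of 2.43 in the control hippocampus, -0.53 in the amygdala, 0.19 in the PFC and 1.67 in the CC. Their part in the area differences was not tested.

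**Figure D1:**
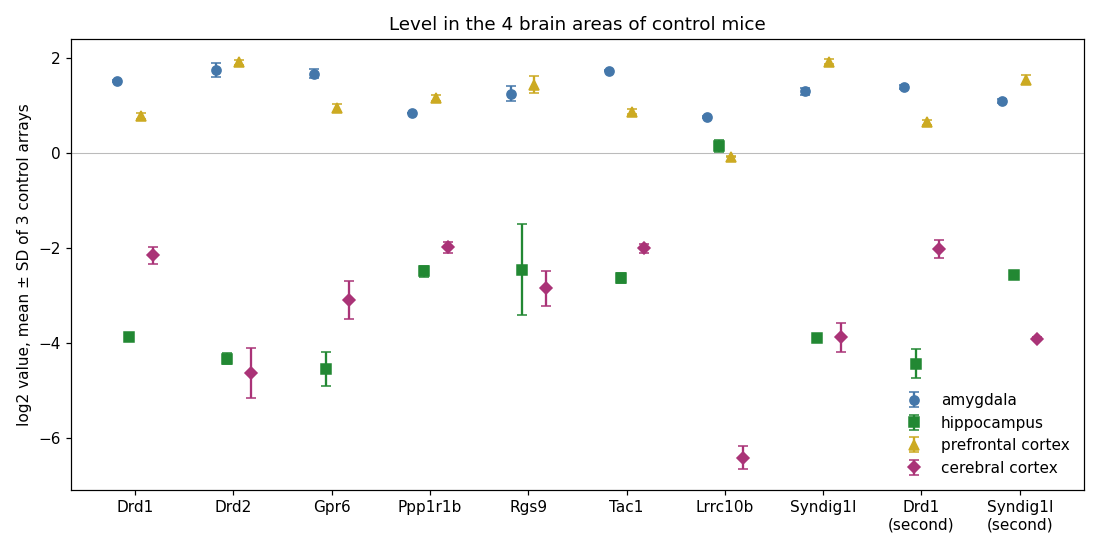
Log2 value (mean ± SD of 3 control arrays, centred on the median of the 24 arrays) of 10 probe sets of 8 genes in the 4 brain areas of control mice, with the second probe sets of Drd1 and Syndig1l at the right. Every gene but Lrrc10b is above 0 in the amygdala and PFC and at -1.99 or lower in the hippocampus and CC.

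Drd1 stood at 1.54, 1.49 and 1.54 in the control amygdala, at 0.78, 0.86 and 0.72 in the PFC and at -3.85, -3.87 and -3.89 in the hippocampus. The arrays of these areas did not overlap, and the amygdala exceeded the PFC by 0.74 (SE 0.07, limma adjusted p = 4.17e-05). Tac1 followed the same order, at 1.73, 1.74 and 1.75 in the amygdala, 0.87, 0.94 and 0.83 in the PFC and -2.72, -2.66 and -2.51 in the hippocampus. Its amygdala level exceeded that of the PFC by 0.86 (SE 0.06, limma adjusted p = 4.62e-06). So did that of Gpr6, by 0.73 (SE 0.21, limma adjusted p = 0.0266).

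Drd2 had nearly the same level in both areas. Its control values were 1.69, 1.91 and 1.66 in the amygdala and 1.94, 1.85 and 1.95 in the PFC, a difference of -0.16 within the spread of the arrays (SE 0.21, limma adjusted p = 0.556). Rgs9 overlapped between these areas as well, with a difference of -0.19 (SE 0.40, limma adjusted p = 0.722). Neither p shows that the levels were equal. Ppp1r1b differed by -0.31 between amygdala and PFC (SE 0.07, limma adjusted p = 0.00673), and Syndig1l by -0.63 (SE 0.12, limma adjusted p = 0.00273) and -0.45 (SE 0.05, limma adjusted p = 5.08e-05) in its 2 probe sets. In all, 5 of 13 probe sets were higher in the amygdala (16.5% of all) and 3 lower (13.5%) at the adjusted p alone. None was called with the fold change of 2 in limma (4.46% of all), and 8 had an unadjusted p under 0.05.

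Lrrc10b had another order of areas. Its control values were 0.73, 0.77 and 0.77 for the amygdala, 0.09, 0.06 and 0.30 for the hippocampus, -0.06, -0.06 and -0.09 for the PFC and -6.28, -6.28 and -6.70 for the CC. The hippocampus and PFC, which were far apart for the other 7 genes, differed here by 0.22 (SE 0.11, limma adjusted p = 0.106). The amygdala exceeded the hippocampus by 0.61 (SE 0.11, limma adjusted p = 0.00145) and the PFC by 0.83 (SE 0.11, limma adjusted p = 0.000222). Over the 24 arrays its Pearson r with the mean of the other genes was 0.472, against 0.906 to 0.99 for the remaining 7. The arrays share their areas, so these coefficients describe the area pattern and carry no test.

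The genes were higher with CMS than in controls in the amygdala, by less than 1 log2 unit. At the adjusted p alone 8 of 13 probe sets rose, where 11.4% of all probe sets did, and none fell (6.88% of all). The median of the 13 was 0.44, against 0.03 over all probe sets. All 13 had CMS and control arrays that did not overlap, each with CMS higher. In either direction 59.2% of all probe sets did not overlap, and the share with CMS higher was not computed. The flat probe sets of Rgs9 and Tac1 are among the 13. They differed by 0.02 to 0.07 and did not pass (limma adjusted p between 0.19 and 0.251). With the fold change of 2, limma and the methods' t-test called none (1.19% of all probe sets by limma), and 10 of the 13 had an unadjusted p under 0.05 in limma. With 1 array left out the count was 5 to 8, and it was 5 without CMS replicate 2, control replicate 1 or control replicate 3.

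Among the receptors, Drd1 had 1.54, 1.49 and 1.54 in the control amygdala and 2.05, 1.97 and 1.97 with CMS. It rose by 0.47 (SE 0.03, limma adjusted p = 0.00231), and its second probe set rose by 0.44 (SE 0.04, limma adjusted p = 0.0055). Gpr6 had 1.74, 1.56 and 1.74 in controls and 2.06, 2.23 and 2.29 with CMS, an increase of 0.51 (SE 0.08, limma adjusted p = 0.0211). The 3 CMS arrays of both genes lay above all control arrays. For Drd2 they did so narrowly, at 1.93, 1.94 and 1.99 against 1.69, 1.91 and 1.66, and its difference of 0.20 did not pass (SE 0.08, limma adjusted p = 0.131). Without control replicate 2, the highest control, Drd2 passed (limma adjusted p = 0.0226).

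DARPP-32 and substance P precursor transcripts were also higher. Ppp1r1b had 0.85, 0.86 and 0.85 in controls and 1.39, 1.25 and 1.12 with CMS and rose by 0.40 (SE 0.07, limma adjusted p = 0.0261). Tac1 had 1.73, 1.74 and 1.75 in controls and 2.01, 2.13 and 2.25 with CMS and rose by 0.39 (SE 0.06, limma adjusted p = 0.0209). In both genes the control arrays were close together and the CMS arrays more spread. Ppp1r1b, Tac1 and Gpr6 did not pass without CMS replicate 2 or without any one of the control arrays (limma adjusted p between 0.061 and 0.0964). In 1 fit of all 24 arrays Gpr6 (limma adjusted p = 0.1) and the second probe set of Drd1 (0.0854) did not pass. Rgs9 had 1.30, 1.09 and 1.39 in controls and 1.76, 1.89 and 1.58 with CMS, a difference of 0.49 that just missed the threshold (SE 0.12, limma adjusted p = 0.0504) and passed when only the 22519 probe sets with the larger SD over the arrays were tested (0.0311).

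Lrrc10b and Syndig1l had the largest increases among the 8 genes in this area. Lrrc10b had 0.73, 0.77 and 0.77 in controls and 1.66, 1.44 and 1.42 with CMS, which is 1.68-fold higher (log2 difference 0.75, SE 0.07, limma adjusted p = 0.00598). The first probe set of Syndig1l had 1.39, 1.23 and 1.30 in controls and 2.13, 2.12 and 2.04 with CMS, 1.74-fold higher (log2 difference 0.80, SE 0.05, limma adjusted p = 0.00259). Its second probe set rose by 0.68 (SE 0.04, limma adjusted p = 0.00231). In bulk RNA, more cells of a type and more RNA per cell cannot be told apart.

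**Figure D2:**
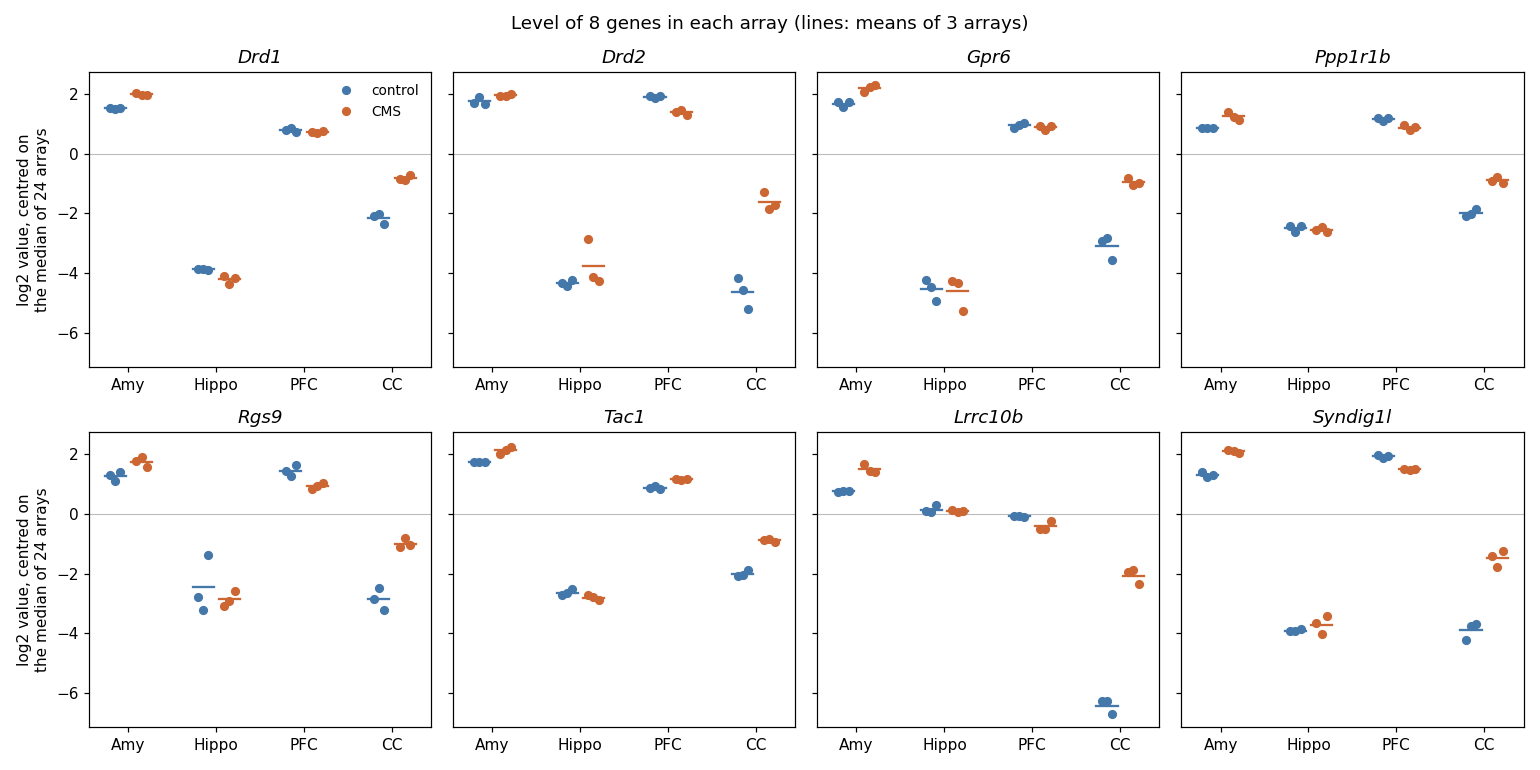
Log2 value of 8 genes in each of the 24 arrays (1 probe set per gene, centred on its median) by area, with control arrays in blue, CMS arrays in orange and lines at the means of 3 arrays. CMS arrays lie above control arrays for all 8 genes in the amygdala and CC.

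Genes outside the striatal set moved with the treatment in the same amygdala arrays. Hybridisation controls had group means of 0.01 in controls and 0.82 with CMS, and poly-A controls 0.37 and 0.50. Of 11 choroid plexus genes 2 rose and 1 fell at the adjusted p alone (10.5% and 8.84% of all genes), with a median of 0.05. The one that fell was Ttr, the transthyretin transcript, at -3.70 on the log2 scale (SE 0.06, limma adjusted p = 0.000115), and the potassium channel gene Kcnj13 was called higher, at 1.05 (SE 0.23, limma adjusted p = 0.0393). Their part in the increases was not tested. Cortical projection neuron genes had means of -0.88 and -0.85, with 4 of 13 higher and 2 lower at the adjusted p alone, and genes of the central amygdala 1.03 and 0.86, with 1 of 10 higher and 2 lower. The shares of all genes were again 10.5% higher and 8.84% lower. Of the central amygdala genes, 1 was called lower with the fold change of 2 and none higher (0.583% of all genes were called in either direction).

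In the PFC several of the genes fell. At the adjusted p alone 4 of 13 probe sets fell, where 2.48% of all probe sets did, and 1 rose (2.78% of all). The median of the 13 was -0.07, against 0.02 over all probe sets, and 10 did not overlap between treatments, 6 of them lower with CMS (49.4% of all did not overlap). Limma and the methods' t-test called none with the fold change of 2 (0.209% of all by limma), and 7 had an unadjusted p under 0.05 in limma. With 1 array left out the count of 5 was 1 to 3, whichever array it was.

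Drd2 had 1.94, 1.85 and 1.95 in the control PFC and 1.40, 1.47 and 1.28 with CMS. It fell by 0.53 on the log2 scale (SE 0.06, limma adjusted p = 0.015), and its limma adjusted p was over the threshold without CMS replicate 1 (0.0585), control replicate 1 (0.0531) or control replicate 3 (0.0598). The other receptors had small differences with overlapping arrays, -0.06 and -0.05 for the probe sets of Drd1 and -0.07 for Gpr6. Their limma adjusted p was between 0.423 and 0.459.

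Syndig1l had 1.98, 1.88 and 1.94 in controls and 1.52, 1.47 and 1.49 with CMS. It fell by 0.44 (SE 0.03, limma adjusted p = 0.00715) and in its second probe set by 0.41 (SE 0.07, limma adjusted p = 0.0435). Ppp1r1b had 1.19, 1.10 and 1.21 in controls and 0.95, 0.79 and 0.88 with CMS and fell by 0.29 (SE 0.05, limma adjusted p = 0.0436). Of these, the first probe set of Syndig1l alone passed whichever array was left out, but in 1 fit of all 24 arrays neither it (limma adjusted p = 0.0812) nor Drd2 (0.331) passed. With any array left out, neither Ppp1r1b (limma adjusted p = 0.0725 to 0.136) nor the second probe set of Syndig1l (0.0573 to 0.124) passed. By the methods' t-test these 2 probe sets (adjusted p = 0.119 and 0.122) and Drd2 (0.06) did not pass. Rgs9, at 1.44, 1.27 and 1.63 in controls and 0.82, 0.93 and 1.03 with CMS, and Lrrc10b, with a difference of -0.33, did not pass (limma adjusted p = 0.0644 and 0.102). Lrrc10b passed without CMS replicate 3 (limma adjusted p = 0.0161).

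Tac1 went the other way. It had 0.87, 0.94 and 0.83 in controls and 1.17, 1.13 and 1.16 with CMS and rose by 0.28 (SE 0.03, limma adjusted p = 0.0192), and its limma adjusted p was 0.0636 to 0.0744 without any one of the CMS arrays or without control replicate 1. By the methods' t-test Tac1 did not pass (adjusted p = 0.0662). Hybridisation controls in these arrays had means of -0.17 in controls and 0.14 with CMS, and poly-A controls -0.55 and 0.03. Of 11 choroid plexus genes 5 fell and none rose at the adjusted p alone (3.92% and 4.45% of all genes), with a median of -0.47. Ttr differed by -7.15 (SE 0.08, limma adjusted p = 1.13e-05) and the cholinergic neuron gene Lhx8 by -1.30 (SE 0.22, limma adjusted p = 0.0308). Cortical projection neuron genes had means of 0.13 and 0.19, with 2 of 13 higher and none lower at the adjusted p alone (4.45% and 3.92% of all genes). Their part in the differences was not tested.

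**Figure D3:**
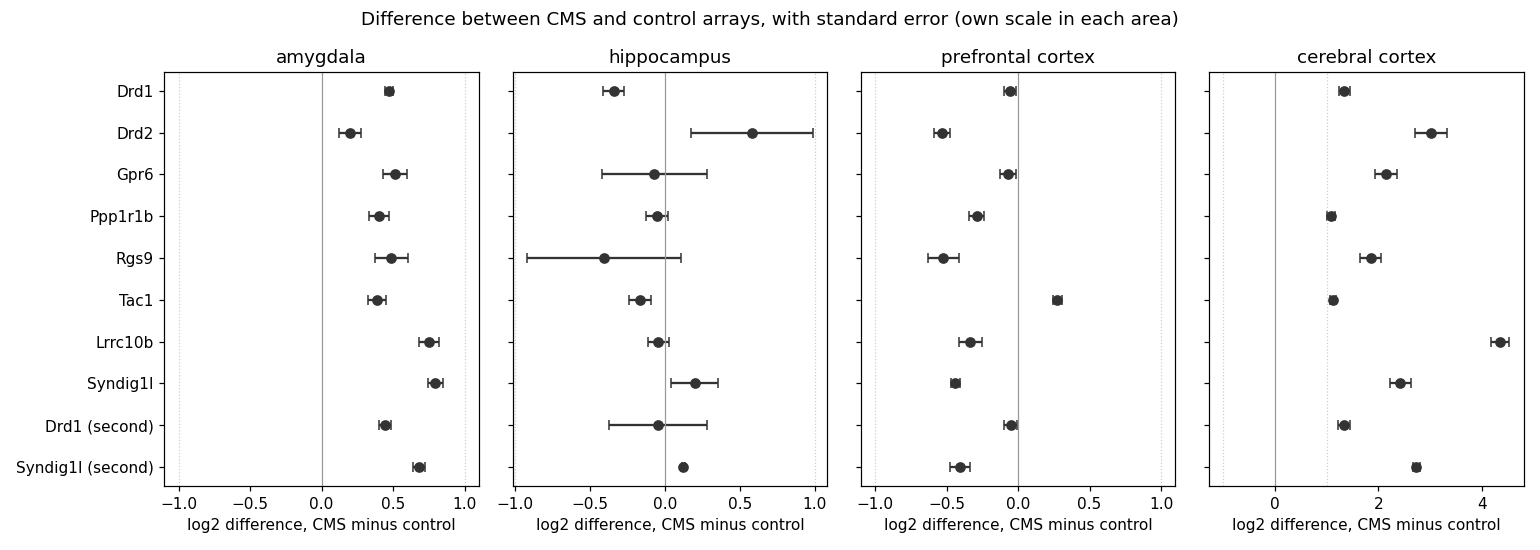
Log2 difference of CMS minus control (points) with its standard error (bars) for 10 probe sets of 8 genes in each area, with dotted lines at 1 log2 unit and an own horizontal scale in each panel. All 10 lie above 0 in the amygdala and above 1 in the CC, while in the PFC all except Tac1 lie below 0.

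The change with CMS differed between the amygdala and the PFC. In a fit of all 24 arrays, 5 of 13 probe sets had a different effect (12.1% of all probe sets did). Effects were also compared with the hippocampus, and more than 5 of the 13 passed in each of those comparisons, the flat probe sets of Rgs9 among them. In those fits 44.5% (amygdala minus hippocampus) and 37.6% (hippocampus minus PFC) of all probe sets passed. A different effect is thus not particular to amygdala and PFC. The difference of the effects, amygdala minus PFC, was 0.53 for Drd1 (SE 0.10, limma adjusted p = 0.00173), 0.69 for Ppp1r1b (SE 0.11, limma adjusted p = 0.000221) and 1.08 for Lrrc10b (SE 0.17, limma adjusted p = 0.000273). For Syndig1l it was 1.23 (SE 0.20, limma adjusted p = 0.000458) and 1.09 (SE 0.08, limma adjusted p = 9.55e-08). For Drd2 it was 0.73 and did not pass in this fit (SE 0.40, limma adjusted p = 0.309). Nor did the second probe set of Drd1, at 0.49 (SE 0.26, limma adjusted p = 0.299). With the 12 arrays of both areas alone, Drd2 passed (limma adjusted p = 0.00183), as did Rgs9 (0.00503), Gpr6 (0.00804) and the second probe set of Drd1 (0.00164). That made 9 of 13, against 10.5% of all probe sets. Tac1, which rose in both areas, differed by 0.11 (SE 0.09, limma adjusted p = 0.529).

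In the hippocampus, where 7 of the 8 genes were low in controls, few differences passed. At the adjusted p alone 1 of 13 probe sets rose (5.68% of all) and 2 fell (35% of all). Drd1 had -3.85, -3.87 and -3.89 in controls and -4.11, -4.36 and -4.16 with CMS and fell by 0.34 (SE 0.07, limma adjusted p = 0.0263), but its second probe set differed by -0.05 (SE 0.32, limma adjusted p = 0.922). The first did not pass without CMS replicate 3 (limma adjusted p = 0.0758), control replicate 1 (0.0889) or control replicate 2 (0.082). The second probe set of Syndig1l rose by 0.12 (SE 0.01, limma adjusted p = 0.00613), and the first differed by 0.20 (SE 0.16, limma adjusted p = 0.35). The second did not pass with that same filter on SD (limma adjusted p = 0.081), with trend and robust options (0.195) or in 1 fit of all 24 arrays (0.112). The other probe set that fell was a flat one of Rgs9, by 0.04 (SE 0.01, limma adjusted p = 0.0458), whose sign turned with quantile normalization and which passed in 1 of the 6 fits with an array left out. Drd2 was at -2.86, -4.13 and -4.25 with CMS, 1 array apart from the rest, and at -4.34, -4.43 and -4.22 in controls, so that its difference of 0.58 did not pass (SE 0.41, limma adjusted p = 0.298).

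Limma and the methods' t-test called none of the 13 in this area with the fold change of 2 (0.651% of all by limma), and 4 had an unadjusted p under 0.05 in limma. Even at the adjusted p, 5.68% of all probe sets rose here and 35% fell. Treatments did not overlap in 5 of the 13, 4 of them lower with CMS (60.6% of all did not overlap). The median of the 13 was -0.05, equal to that of all probe sets to 2 decimals. Of 12 thalamus and habenula genes, 5 were called higher in the same arrays, with Tnnt1 at 2.33 (SE 0.25, limma adjusted p = 0.0097), and none lower. Of all genes, 0.253% were called in either direction. Their mean was -0.04 in controls and 0.84 with CMS, while 3 of 11 choroid plexus genes rose and none fell at the adjusted p alone (4.66% and 24.9% of all genes), with a median of 0.29. Hybridisation controls had means of -1.11 in controls and -1.48 with CMS, and poly-A controls -4.02 and -4.11. Their part in the small differences was not tested.

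In the CC, from which the genes were known, 10 of 13 probe sets were higher with CMS by a fold change over 2 and none was lower by as much (1.13% and 0.309% of all probe sets). No test was used for the counts in this area. The median of the 13 was 1.34, against -0.03 over all probe sets, and 12 did not overlap between treatments (55.6% of all). The 3 flat probe sets of Rgs9 and Tac1 differed by at most 0.08. These figures describe the choice of the genes.

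Drd2 had -4.15, -4.56 and -5.20 in controls and -1.28, -1.86 and -1.72 with CMS, 8.1-fold higher. Leaving out any one array left its log2 difference of 3.02 between 2.74 and 3.26. Drd1 had -2.08, -2.03 and -2.35 in controls and -0.85, -0.89 and -0.70 with CMS, 2.53-fold higher in both of its probe sets. Gpr6 had -2.91, -2.83 and -3.56 in controls and -0.80, -1.05 and -0.99 with CMS, 4.45-fold higher. Of the receptors, those of the indirect pathway had the larger differences. The third control array was the lowest for all of them.

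Ppp1r1b had -2.09, -2.02 and -1.86 in controls and -0.92, -0.79 and -0.97 with CMS, 2.13-fold higher. Rgs9 had -2.84, -2.48 and -3.22 in controls and -1.11, -0.82 and -1.06 with CMS, 3.61-fold higher. Tac1 had -2.07, -2.05 and -1.89 in controls and -0.88, -0.83 and -0.92 with CMS, 2.18-fold higher. These 3 genes and Drd1, with 2.13-fold to 3.61-fold differences, lay below the others. Lrrc10b had the largest difference of the 8, from -6.28, -6.28 and -6.70 to -1.95, -1.89 and -2.35, 20.4-fold higher. Syndig1l had -4.23, -3.73 and -3.69 in controls and -1.40, -1.77 and -1.23 with CMS, 5.35-fold higher, and its second probe set was 6.64-fold higher. The CMS arrays of all 8 genes lay above the CC controls and, at means of -2.06 to -0.68 over 10 probe sets, below the control amygdala and PFC.

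Choroid plexus genes moved in the opposite direction in these arrays. Of 11 measured, 10 were lower by a fold change over 2 and none was higher by as much (0.407% of all genes were past that fold in either direction), with Ttr at a log2 difference of -6.91, Kcne2 at -4.36 and Folr1 at -4.00. Their mean was 1.67 in controls (1.64 to 1.70) and -1.26 with CMS (-1.29 to -1.22). Cortical projection neuron genes had means of 0.50 in controls and 0.54 with CMS, and none of 13 was past that fold. Hybridisation controls had means of 0.15 and 0.01, and poly-A controls 0.48 and 0.03. Their part in the differences was not tested.

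Other genes that striatal projection neurons express were read from a list of 28, of which 27 had a probe set of their own. In the amygdala 17 of the 27 rose and none fell at the adjusted p alone (10.5% and 8.84% of all genes), with a median of 0.34 against 0.02 over all genes. None was called in limma with the fold change of 2 (0.583% of all genes), and 20 had an unadjusted p under 0.05. The largest difference was that of Strip2, a gene of a phosphatase and kinase complex, at 0.83 (SE 0.16, limma adjusted p = 0.0291). Without control replicate 2 the count was 9, the lowest with 1 array left out, and it was 10 without either of the other control arrays.

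In the PFC 12 of the 27 fell and 2 rose (3.92% and 4.45% of all genes), with a median of -0.21 against 0.02 over all genes. None was called in limma (0.247% of all genes), and 20 had an unadjusted p under 0.05. Sh3rf2, which encodes a ubiquitin ligase, had the largest difference, at -0.95 (SE 0.19, limma adjusted p = 0.044). With 1 array left out the number that fell was 4 to 7. The hippocampus had 2 that rose and 1 that fell (4.66% and 24.9% of all genes), none was called in limma (0.253% of all genes, 6 of the 27 with an unadjusted p under 0.05), and the tyrosine phosphatase gene Ptpn5 had the largest difference, at 0.96 (SE 0.07, limma adjusted p = 0.00622). In the CC 4 were higher by a fold change over 2 and none was lower by as much (0.407% of all genes in either direction), with a median of 0.36. Rxrg, a retinoid X receptor, differed by 2.66, Ido1, which degrades tryptophan, by 2.15, and the retinoic acid receptor Rarb by 1.83. This contrast is the one from which the 8 genes were known.

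**Figure D4:**
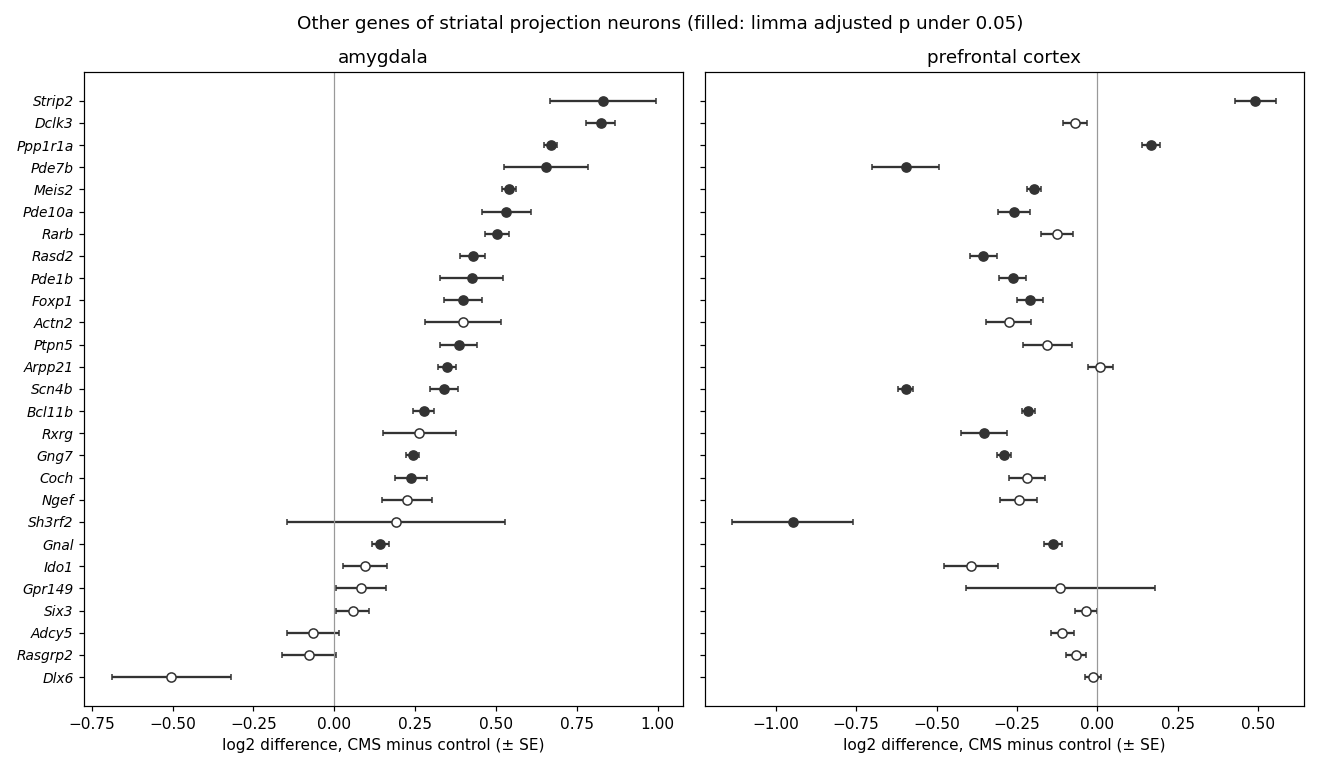
Log2 difference of CMS minus control (points, ± SE) for 27 other genes of striatal projection neurons in the amygdala and PFC, ordered by the amygdala value, with filled points where the limma adjusted p was under 0.05. In the amygdala 17 points are filled, all above 0, and in the PFC 12 filled points lie below 0 and 2 above.

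Genes of the separate pathways were counted too. The shares of all genes that passed in each area are those given for the 27. Of 8 direct pathway genes, 3 rose and none fell in the amygdala (10.5% and 8.84% of all genes), Slc35d3, of a nucleotide sugar transporter family, by 0.97 (SE 0.06, limma adjusted p = 0.00201), and none passed in limma in the PFC, where 2 had an unadjusted p under 0.05. Of 6 indirect pathway genes, 1 rose in the amygdala, the enkephalin precursor Penk by 0.34 (SE 0.03, limma adjusted p = 0.00542), and 1 in the PFC, the calcium-binding protein gene Necab1 by 0.28 (SE 0.05, limma adjusted p = 0.0311). Among the hippocampus values, 3 direct pathway genes rose and 1 fell, Isl1 with the largest difference at 0.44 (SE 0.04, limma adjusted p = 0.009), and 2 of 6 indirect pathway genes fell, where 24.9% of all genes fell. In the CC 1 gene of each list was past a fold change of 2, Slc35d3, 2.86-fold higher, and Penk, at a log2 difference of 1.55.

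Of the other dopamine receptors, Drd3 and Drd4 were measured and had small differences, while Drd5 had no probe set of its own. The mean of Drd3 and Drd4 was -0.03 to 0.03 over the 8 groups, so it hardly varied by area or treatment. Drd3 and Drd4 differed by at most 0.06 on the log2 scale between treatments in any area, and neither passed in limma in the amygdala, hippocampus or PFC, where the lowest adjusted p was 0.0594. Their unadjusted p was under 0.05 in the hippocampus alone. Of 7 genes of dopamine synthesis and transport, none passed in limma in the amygdala or PFC, where 1 and 2 had an unadjusted p under 0.05. Th, the rate-limiting enzyme of dopamine synthesis, differed by -0.91 (SE 0.39, limma adjusted p = 0.16) in the amygdala, and the dopamine transporter gene Slc6a3 by 0.75 (SE 0.31, limma adjusted p = 0.239) in the PFC. The hippocampus had 1 that rose and 1 that fell (4.66% and 24.9% of all genes), and the vesicular monoamine transporter gene Slc18a2 rose by 0.71 (SE 0.17, limma adjusted p = 0.0391).

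Striatal and basal forebrain cholinergic neurons are a further cell type found near the projection neurons. In the amygdala, 2 of 7 of their genes were called lower with CMS, the acetylcholine vesicle transporter gene Slc18a3 at -1.03 (SE 0.12, limma adjusted p = 0.00765) and Ecel1 at -1.16 (SE 0.21, limma adjusted p = 0.0239), and none was called higher (0.583% of all genes were called in either direction). At the adjusted p alone 1 more passed, Zic1, which was higher by 0.30 (SE 0.03, limma adjusted p = 0.0061) and is named after its value was seen. The list mean was 1.78 in controls (1.72 to 1.84) and 1.36 with CMS (1.11 to 1.55). In the PFC it was 0.76 and 0.42, with 2 lower and none higher at the adjusted p alone (3.92% and 4.45% of all genes). In the hippocampus it went the other way, from -0.43 in controls to -0.07 with CMS. There 1 gene was called higher and none lower (0.253% of all genes in either direction). In the CC the list mean was -0.69 in controls and -0.60 with CMS, with none past a fold change of 2 (0.407% of all genes).

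The genes most like the 8 over the 24 arrays, by Pearson r with their mean, were Rxrg (0.989), Slc35d3 (0.986), Pde1b (0.985), Ido1 (0.985) and Rasd2 (0.983). All 5 stood on the lists of projection neuron or direct pathway genes. The arrays fall into areas, so r mostly describes levels by area, and it carries no test. Rxrg had group means of 1.77 in the control and 2.03 in the CMS amygdala, 1.53 and 1.18 in the PFC, -3.13 and -2.77 in the hippocampus and -3.96 and -1.30 in the CC. This was the order of the mean of the 8 genes, which was 1.13 and 1.56 in the amygdala, 0.91 and 0.70 in the PFC, -2.59 and -2.57 in the hippocampus and -3.01 and -1.05 in the CC.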

How the data were processed

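Total RNA of 24 samples (4 areas, CMS or control, 3 arrays each) was measured on Affymetrix mouse genome arrays. GCRMA in GeneSpring GX (no version was stated) gave the deposited log2 values, which the authors normalized to a baseline. Each probe set has a median of 0 across the 24 arrays, so absolute levels and signal over background cannot be read. The bacterial control probe sets (64) were left out and 45037 tested. The genes and lists were chosen with earlier results of these data known, so no list is independent evidence.

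Each area was fitted separately with limma 3.58.1 in R 4.3.3, two-sided, CMS against control, and the 12 control arrays together with 4 area means, with Benjamini-Hochberg adjustment over all probe sets and calls at a fold change over 2 with an adjusted p under 0.05. The CC, from which the genes were known, was described by the fold change alone, with no test. Gene lists were read as means of the probe sets of each gene. Symbols came from the platform annotation (34945 probe sets with 1, 932 with several, 9160 with none). The text names all of the chosen genes and the 5 genes most like them. From the lists it names up to 3 called genes per area or the one with the largest difference, and Zic1 in the amygdala. Not every list and area has a gene named, and some called genes are not named.

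The alternatives were quantile normalization, median centring, a filter on SD, gene means, array weights, eBayes with trend and robust, the methods' t-test, a replicate block, other sets of arrays in the fit and leaving out each array. Counts at the adjusted p alone and differences of effects were added after seeing the data. Deviations of arrays with the same replicate number correlated at -0.0581 to 0.106 between treatments and between control areas, which gave no sign of pairing by number. CMS areas were not checked against each other. Whether areas share mice is not settled by this, and the tests treat the arrays as independent. On simulated data over 45037 probe sets, calls were counted for changes of 1.5 log2 units. They recovered 84% of these for the amygdala, 90% for the hippocampus and 94% for the PFC. Smaller changes were not simulated, and a call needs a fold change over 2. The recovery therefore does not cover counts at the adjusted p alone. Nor does it cover the CMS differences of the chosen genes in these areas, which were 0.80 log2 units or less in size. An exact permutation test of 3 against 3 arrays cannot go below a two-sided p of 0.1, so calls rest on the pooled spread, and the number of arrays limits the precision. Promoter motifs were searched on both strands in RefSeq windows, and figures were drawn with matplotlib.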

Additional observations from a re-analysis of the deposited data

Results flagged for a closer look

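The effect of CMS differed between the amygdala and the prefrontal cortex in 5 probe sets of 4 genes, by limma's test of the difference itself in a fit of all 24 arrays. The difference of the effects, amygdala minus prefrontal cortex on the log2 scale, was 0.529 for Drd1 (adjusted p = 0.00173), 0.691 for Ppp1r1b (0.000221), 1.084 for Lrrc10b (0.000273), and 1.233 (0.000458) and 1.089 (9.55e-08) for the probe sets of Syndig1l, where 12.1% of all probe sets passed. The second probe set of Drd1 did not pass, at 0.495 (limma adjusted p = 0.299). The count was 5 whichever array of these areas was left out. In the comparisons with the hippocampus more of the chosen probe sets passed, where 44.5% and 37.6% of all did. The hybridisation controls had means of 0.01 in controls and 0.82 with CMS in the amygdala and of -0.17 and 0.14 in the prefrontal cortex, and their part was not tested.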

How the results depend on the processing

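The counts called with the fold change of 2 moved only when it was dropped, to 8 (amygdala), 3 (hippocampus), 5 (PFC) and 8 between control amygdala and PFC, which are the counts at the adjusted p alone. Leaving out each array left the called counts at 0, 0, 0, 9, 0 and 9. At the adjusted p alone, leaving out each array gave 5 to 8 for the amygdala, 1 to 4 for the hippocampus, 1 to 3 for the PFC, 10 between control amygdala and hippocampus, 7 to 8 between control amygdala and PFC and 9 to 11 between control hippocampus and PFC. With the number as a replicate block, for which no sign of pairing was seen, the counts were 4 for the amygdala, 0 for the hippocampus and 0 for the PFC. There the first probe set of Syndig1l had a limma adjusted p of 0.0654. The 3 of the hippocampus became 1 with quantile normalization, median centring, the SD filter and gene means. The 5 of the PFC became 3 with quantile normalization, median centring and the fit of all 24 arrays, 2 with trend and robust options, 1 with the methods' t-test and 9 with array weights. The 11 between control hippocampus and PFC became 7 with gene means, where there are fewer features.

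The median difference of 1.34 in the CC was 1.12 with quantile normalization, 2.00 with the SD filter and with the most variable probe set of each gene, both of which drop flat probe sets, 1.75 with gene means, and 1.24 to 1.40 with an array left out. The number of probe sets whose effect differed between amygdala and PFC was 9 in the fit of 12 arrays and 5 with each array left out. A flat probe set of Rgs9 in the hippocampus changed sign with quantile normalization, to 0.004164. Among the 2187 values of single genes and lists, 1900 kept their side of the threshold or moved less than the spread (35 of them changed sign without passing either way), 184 lost the call, 41 gained it and 61 moved beyond the spread or, for counts, by over 1.5 times. Of the other projection neuron genes, the 17 that rose in the amygdala became 9 with the replicate block, and the 12 that fell in the PFC became 1 with it, 4 with the methods' t-test, 5 with trend and robust options, 7 with median centring and 18 with array weights. Where no cause is given, it was not tested.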
